A study of Mus musculus with 6 samples.

Results

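The SOX genes examined were Sox2, Sox4, Sox5, Sox6, Sox8, Sox9, Sox10 and Sox11, chosen by name as SOX transcription factors of supporting cells, glia and cartilage. All 8 were found among the 24411 gene symbols counted, and all 8 passed the filter on low counts. They were compared between cochleae of Kir2.1-OE mice and of littermate controls at P9, before the onset of hearing. Kir2.1-OE mice were heterozygous for both transgenes (Otof rtTA+/-; Kir2.1+/-), so that doxycycline (DOX) induced Kir2.1, a K+ channel that holds cells near their resting potential, from the Otof promoter, which is active mainly in inner hair cells (IHCs). Controls carried the rtTA driver alone (Otof rtTA+/-; Kir2.1+/+) and also received DOX, and both lines were on the C57BL/6N background. Each group had 3 libraries, and each library came from 1 pool of 8 cochleae from 4 mice, so the pool and not the mouse was the replicate. The study compared these tissues to find genes that depend on the action potentials which IHCs fire by themselves before hearing.

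SOX proteins bind DNA through a domain called the HMG box, which lies in the minor groove and bends the helix, and they usually act together with partner factors. Members of one subgroup have nearly the same box and often overlapping roles. SOX2 (subgroup SOXB1) sets up the sensory patches of the inner ear and remains on in supporting cells. SOX4 and SOX11 (SOXC) act in immature neurons and progenitors. SOX9 drives cartilage together with SOX5 and SOX6 (SOXD), and it is also present in cochlear non-sensory epithelium. SOX10, like SOX8 and SOX9 a SOXE factor, is required for Schwann cells and melanocytes and is also made in cochlear supporting cells.

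The start of the HMG box coding sequence is shown for each gene because it is what makes these genes 1 family and the place where their reads could be confused. Each run gives 60 coding bases, read 5′ to 3′ from GENCODE vM21 transcripts, and capitals mark the 27 positions at which all 8 genes have the same base.
Sox2: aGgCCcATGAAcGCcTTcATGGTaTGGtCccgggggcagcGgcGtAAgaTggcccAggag
Sox4: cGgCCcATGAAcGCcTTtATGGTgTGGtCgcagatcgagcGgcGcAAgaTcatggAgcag
Sox11: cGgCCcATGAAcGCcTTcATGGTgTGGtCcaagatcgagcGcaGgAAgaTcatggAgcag
Sox5: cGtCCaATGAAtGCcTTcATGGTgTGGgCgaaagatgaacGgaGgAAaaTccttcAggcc
Sox6: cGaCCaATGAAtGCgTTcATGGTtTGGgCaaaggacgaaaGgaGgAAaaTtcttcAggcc
Sox8: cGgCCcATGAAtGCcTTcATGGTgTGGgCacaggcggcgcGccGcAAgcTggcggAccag
Sox9: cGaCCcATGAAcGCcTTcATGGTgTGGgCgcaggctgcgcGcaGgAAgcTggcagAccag
Sox10: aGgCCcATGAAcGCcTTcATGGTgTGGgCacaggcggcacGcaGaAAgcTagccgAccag
Over 210 coding bases of the box, identity ranged from 82.4% to 91.0% in the 5 pairs within a subgroup and from 52.9% to 75.2% in the 23 pairs between subgroups. At the protein level the corresponding ranges were 92.9% to 98.6% and 47.1% to 67.1%. The longest run of identical bases between the longest transcripts of any pair was 48 nt, shared by Sox4 and Sox11, so most of each transcript set it apart from the other members.

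The libraries held between 35430940 and 41205047 assigned reads, and normalized counts are these estimated reads scaled by library size with edgeR's TMM method. Kcnj2, which encodes Kir2.1, had normalized counts of 3612, 3814 and 2213 in the Kir2.1-OE pools and of 235.8, 228.1 and 226.0 in the control pools, so each library followed its label. Defining genes of hair cells (Otof, Slc26a5), supporting cells (Prox1, Tectb), spiral ganglion neurons (Nefh), Schwann cells (Prx) and cartilage (Col2a1) were detected in every library. In such bulk tissue, fewer cells of a type and less RNA per cell cannot be told apart. Nothing beyond the pools is known to separate the replicates, so p-values measure the spread between pools.

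Sox9 and Sox5 were higher in Kir2.1-OE cochleae than in controls, whereas none of the 8 SOX genes was called lower. Called genes had to differ by over 1.5-fold with an adjusted p below 0.05 in the quasi-likelihood test of edgeR, run on all 15303 genes that passed the filter. By this rule 2 of the 8 genes were called higher, against 15.5% of all genes tested, and 0 were called lower, against 5.08% (20.5% in either direction). At an unadjusted p-value under 0.05, 1 gene (Sox2) was lower, and DESeq2 and limma-voom each called 0 genes lower. Without the fold change threshold, 6 of the 8 genes were higher (27.3% of all genes) and 0 lower (23.5%). The normalized counts of those 6, Sox5, Sox6, Sox8, Sox9, Sox10 and Sox11, did not overlap between the groups and were higher in Kir2.1-OE pools. The same held for 31.7% of all genes, and a further 29.9% did not overlap and were lower (61.6% in all). For the SOX genes the median log2 fold change was 0.44, beside 0.01 over all genes tested.

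**Figure D1:**
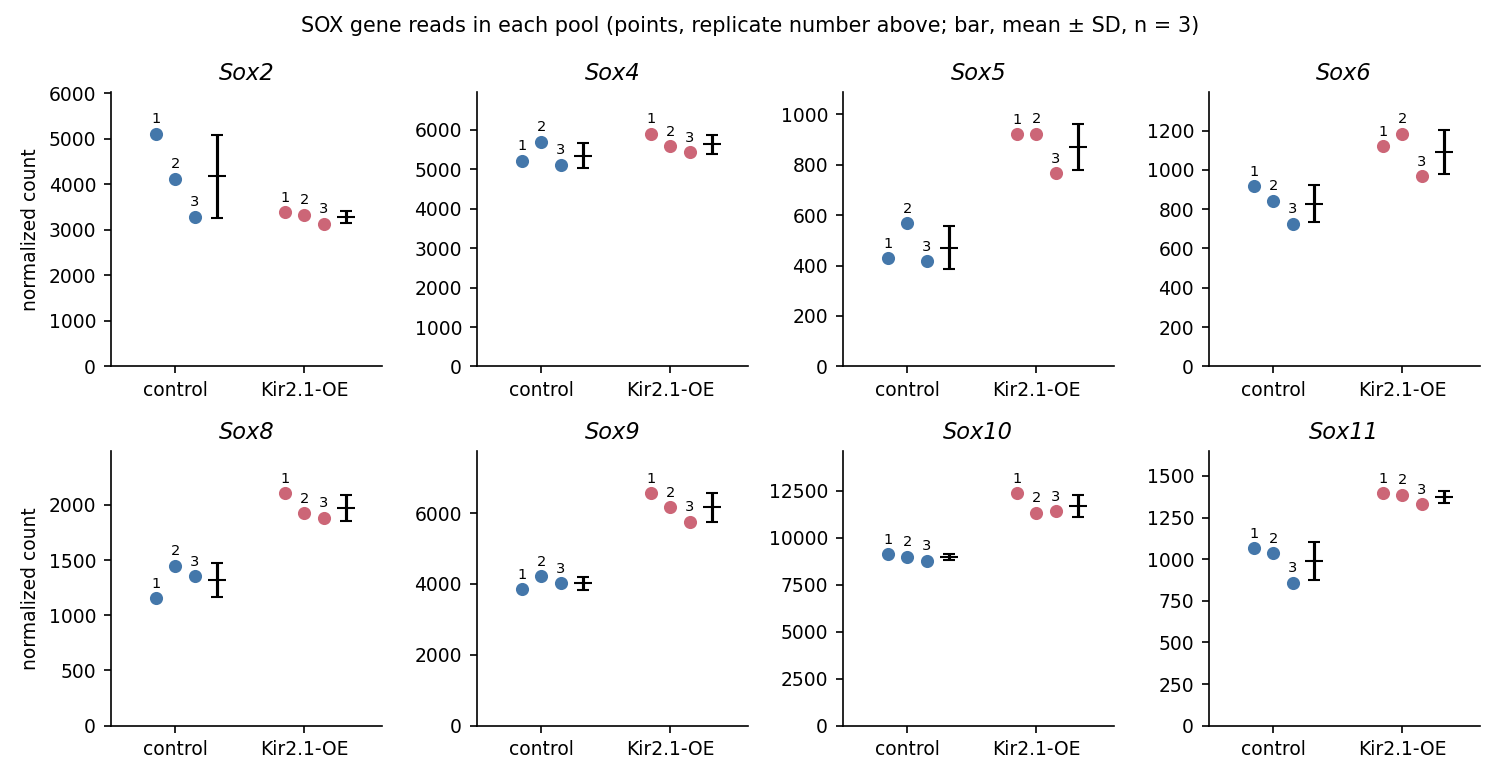
Normalized count (vertical axis, from 0) of each SOX gene in the 3 control and 3 Kir2.1-OE pools, with the replicate number above each point and the mean ± SD (n = 3) to its right. Sox5, Sox6, Sox8, Sox9, Sox10 and Sox11 do not overlap between the groups, and control replicate 3 of Sox2 lies among the Kir2.1-OE pools.

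Sox2 (ENSMUSG00000074637.7; mm10 chromosome 3, 34650405 to 34652461, plus strand), the supporting cell and progenitor factor, had normalized counts of 5105, 4124 and 3289 in control replicates 1 to 3. The Kir2.1-OE pools held 3380, 3329 and 3137. Control replicate 1 was the highest of the 6 pools and control replicate 3 lay within the Kir2.1-OE range, so the groups overlapped. The SD was 21.8% of the mean in controls, wider than that of any other SOX gene examined, and 3.91% in Kir2.1-OE pools. The log2 fold change was -0.35 (SE 0.135), which missed the threshold (unadjusted p = 0.0296, adjusted p = 0.0567 from edgeR). Its size rested on single control pools: without control replicate 3 it was -0.49 (edgeR, adjusted p = 0.00591), and without control replicate 1 it was -0.18 (adjusted p = 0.195). DESeq2's Wald test gave an adjusted p of 0.0222 for Sox2 at -0.36, which is also under 1.5-fold. Over all alternatives the adjusted p for Sox2 ranged from 0.00591 to 0.36, and it was also under 0.05 with upper quartile scaling (0.0225) and without a count filter (0.0474). Sox2 lies inside Sox2ot, a non-coding gene of the same strand, but their annotated exons share 0 bases. Sox2ot had 109.4 to 143.6 normalized counts in controls and 120.9 to 216.6 in Kir2.1-OE pools (log2 fold change 0.32, SE 0.238, edgeR adjusted p = 0.28).

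Supporting cell genes are set beside Sox2, since SOX2 is made by those cells. Of 18 markers, 3 were called higher (Prox1, Notch1 and Kcnj10), 3 lower (Fabp7, Tectb and Hes5) and 12 neither, with a median log2 fold change of -0.01. Over all genes tested 15.5% were called higher and 5.08% lower. Hes5 had low normalized counts that overlapped, 16.3 to 60.2 in controls and 9.24 to 16.9 in Kir2.1-OE pools. The summed level of the 18 markers was 6842 to 7133 CPM (read counts scaled to a common library total) in Kir2.1-OE pools and 8048 to 10490 CPM in controls. None of the 18 was at 0 in all libraries. Tectb, which encodes the tectorial membrane protein beta-tectorin, had the largest counts of those named here. It had normalized counts of 282469, 216294 and 180825 in control replicates 1 to 3 and of 128745, 142715 and 149313 in Kir2.1-OE replicates 1 to 3 (log2 fold change -0.69, SE 0.149, edgeR adjusted p = 0.00405). Without Tectb, a sum computed after the values were seen, the other 17 markers had 3080 to 3412 CPM in Kir2.1-OE pools and 2966 to 3231 CPM in controls, so the groups overlapped and the lower sum of all 18 was that of Tectb. The part of supporting cell content in the Sox2 values was not tested.

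Sox4 (ENSMUSG00000076431.4; mm10 chromosome 13, 28948919 to 28953713, minus strand) had normalized counts of 5223, 5701 and 5123 in controls and 5902, 5587 and 5433 in Kir2.1-OE pools. The groups overlapped, since control replicate 2 lay above 2 of the Kir2.1-OE pools. The log2 fold change was 0.08 (SE 0.0725, adjusted p = 0.406 from edgeR), and it was -0.01 with upper quartile scaling. An antisense non-coding gene, Gm26735, covers 2616 bases of the Sox4 exons and has no value of its own here. The strand setting of the counting is not given in the sources used here, so reads from the 2 strands cannot be told apart.

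Sox11 (ENSMUSG00000063632.6; mm10 chromosome 12, 27334264 to 27342574, minus strand), the other SOXC gene, had normalized counts of 1068, 1037 and 858.1 in controls. The Kir2.1-OE pools held 1397, 1386 and 1330 and lay above all 3 controls. The log2 fold change was 0.47 (SE 0.0936, adjusted p = 0.00269 from edgeR), under the 1.5-fold threshold. Within each library the log2 ratio of Sox4 to Sox11 reads, which does not depend on scaling, was 2.29, 2.46 and 2.58 in controls and 2.08, 2.01 and 2.03 in Kir2.1-OE pools. The ratio was thus lower in all 3 Kir2.1-OE pools, by a mean difference of -0.40 (p = 0.1 in a two-sided exact permutation test, which cannot go lower with 3 pools a group, and 0.1 after Benjamini-Hochberg adjustment over the 3 ratios computed).

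Sox5 (ENSMUSG00000041540.16; mm10 chromosome 6, 143828425 to 144781977, minus strand), a partner of SOX9 in cartilage, had the highest log2 fold change of the 8 genes. Its normalized counts were 428.4, 567.9 and 416.3 in controls and 921.7, 922.4 and 767.0 in Kir2.1-OE pools. The lowest Kir2.1-OE pool lay above the highest control. The mean was 870.4 ± 89.5 (SD, n = 3) against 470.9 ± 84.2, a log2 fold change of 0.88 (SE 0.136, adjusted p = 7.89e-04 from edgeR), and it remained called with each library left out in turn (0.80 to 1.04). An antisense gene, Sox5os1, overlaps 1330 bases of its exons and has no value of its own here.

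Sox6 (ENSMUSG00000051910.13; mm10 chromosome 7, 115470872 to 116038796, minus strand), the other SOXD gene, had 916.0, 843.3 and 725.8 normalized counts in controls. The Kir2.1-OE values of 1120, 1183 and 969.1 were all higher. The log2 fold change was 0.40 (SE 0.110, adjusted p = 0.0141 from edgeR), under 1.5-fold, and the adjusted p ranged from 0.00773 to 0.0661 with a library left out, rising above 0.05 without Kir2.1-OE replicate 1 or 2 or control replicate 3. The log2 ratio of Sox5 to Sox6 reads was -1.10, -0.57 and -0.80 in controls and -0.28, -0.36 and -0.34 in Kir2.1-OE pools. The difference in means was 0.50 with no overlap (p = 0.1, two-sided exact permutation test).

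Sox9 (ENSMUSG00000000567.5; mm10 chromosome 11, 112782224 to 112787760, plus strand), the main cartilage factor, had normalized counts of 3844, 4210 and 4019 in controls. The Kir2.1-OE pools held 6563, 6172 and 5757. All Kir2.1-OE values were well above the controls, with means of 6164 ± 403.0 (SD, n = 3) and 4024 ± 183.2. The log2 fold change was 0.62 (SE 0.0752, adjusted p = 2.76e-04 from edgeR), close to the threshold of 0.585. It was under that threshold with upper quartile scaling (0.53), and when control replicate 1 (0.58) or Kir2.1-OE replicate 1 (0.56) was left out, with adjusted p-values of 0.00216 or less in these fits.

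Sox8 (ENSMUSG00000024176.10; mm10 chromosome 17, 25565892 to 25570686, minus strand), the third SOXE gene, had 1153, 1450 and 1353 normalized counts in controls and 2106, 1925 and 1882 in Kir2.1-OE pools. The groups did not overlap. Its log2 fold change of 0.58 (SE 0.0952, adjusted p = 0.00109 from edgeR) lay just under the threshold of 0.585, and it was called when Kir2.1-OE replicate 3 (0.60), control replicate 2 (0.65) or control replicate 3 (0.60) was left out. Sox9 and Sox8 were thus the members just inside and just outside the fold change threshold. An antisense gene, 2810468N07Rik, shares 329 exon bases with Sox8 and had a log2 fold change of 0.13 (SE 0.126, edgeR adjusted p = 0.428).

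Sox10 (ENSMUSG00000033006.10; mm10 chromosome 15, 79154908 to 79165240, minus strand), the glial and melanocyte factor, had the most reads of the 8 genes. Its normalized counts were 9133, 8999 and 8786 in controls, an SD of 1.95% of the mean, and 12376, 11325 and 11403 in Kir2.1-OE pools. The log2 fold change was 0.38 (SE 0.0698, adjusted p = 0.00180 from edgeR), under 1.5-fold although the groups did not overlap. The log2 ratio of Sox9 to Sox10 reads was -1.25, -1.10 and -1.13 in controls and -0.92, -0.88 and -0.99 in Kir2.1-OE pools. Sox9 was thus higher relative to Sox10 in each Kir2.1-OE pool, by 0.23 (p = 0.1, two-sided exact permutation test).

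The genes also differed in level. Normalized counts per kb of the longest annotated transcript allow levels to be compared between genes. In controls Sox10 was highest on this scale, with 3228 ± 63.0 (SD, n = 3), followed by Sox2 with 2029 ± 441.8, Sox4 with 1116 ± 64.4, Sox9 with 973.2 ± 44.3 and Sox8 with 439.5 ± 50.6. Sox11, Sox6 and Sox5 were lowest, with 118.8 ± 13.6, 95.6 ± 11.1 and 65.0 ± 11.6. Among neighbours in this order only Sox11 and Sox6 overlapped between pools. In Kir2.1-OE pools the order was the same except that Sox9 (1491 ± 97.5) stood above Sox4 (1176 ± 49.8). There Sox9 overlapped with Sox2 (1595 ± 62.4), and Sox6 (125.8 ± 12.7) with Sox5 (120.2 ± 12.4). Sox5 and Sox6 have 14 and 16 annotated transcripts, so their length is the least certain.

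**Figure D2:**
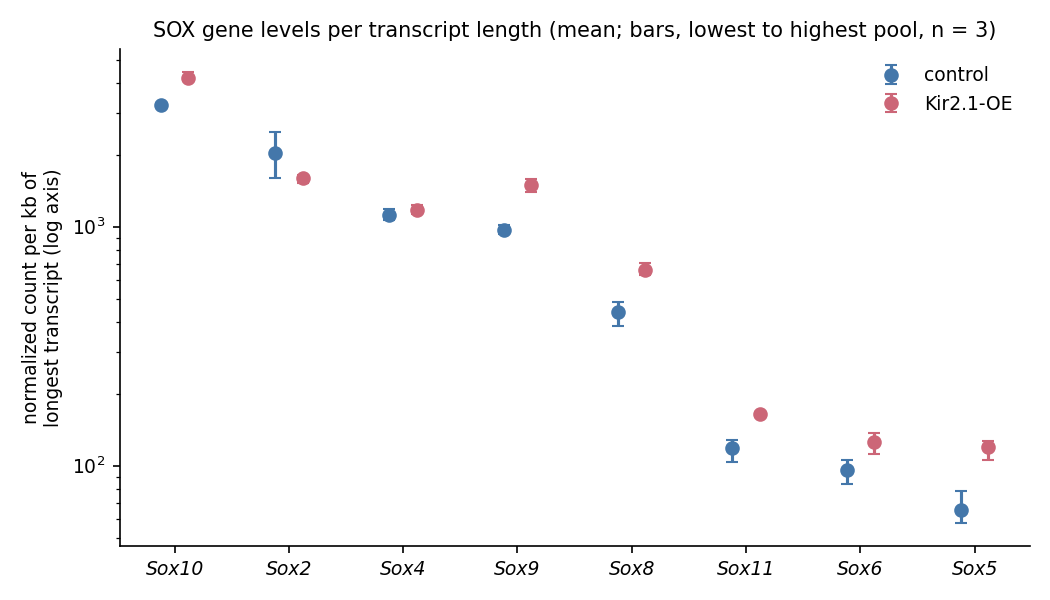
Normalized count per kb of the longest transcript (log axis) for the 8 SOX genes in order of their control level, with points for the mean of 3 pools and bars from the lowest to the highest pool. Sox10 is highest and Sox5 lowest in both groups, and Sox9 stands above Sox4 in Kir2.1-OE pools only.

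Log2 fold changes in these libraries went with transcript length. Over all genes tested, the median rose from -0.50 for the 658 genes with a longest transcript up to 1000 nt to 0.81 for the 886 genes over 8000 nt. Beside genes of their own length class, the SOX genes divided. Sox10 (2780 nt) and Sox8 (3000 nt) lay above the upper quartile of 0.14 for genes of 2000 to 3000 nt. Sox9 (4135 nt) lay above the upper quartile of 0.49 for 4000 to 5000 nt, and Sox5 (7243 nt) above that of 0.76 for 5000 to 8000 nt. Sox4 (4795 nt) lay between the quartiles of its class, as did Sox11 (8311 nt). Sox2 (2057 nt) and Sox6 (8668 nt) lay just below the lower quartiles of -0.34 and 0.41 of theirs.

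**Figure D3:**
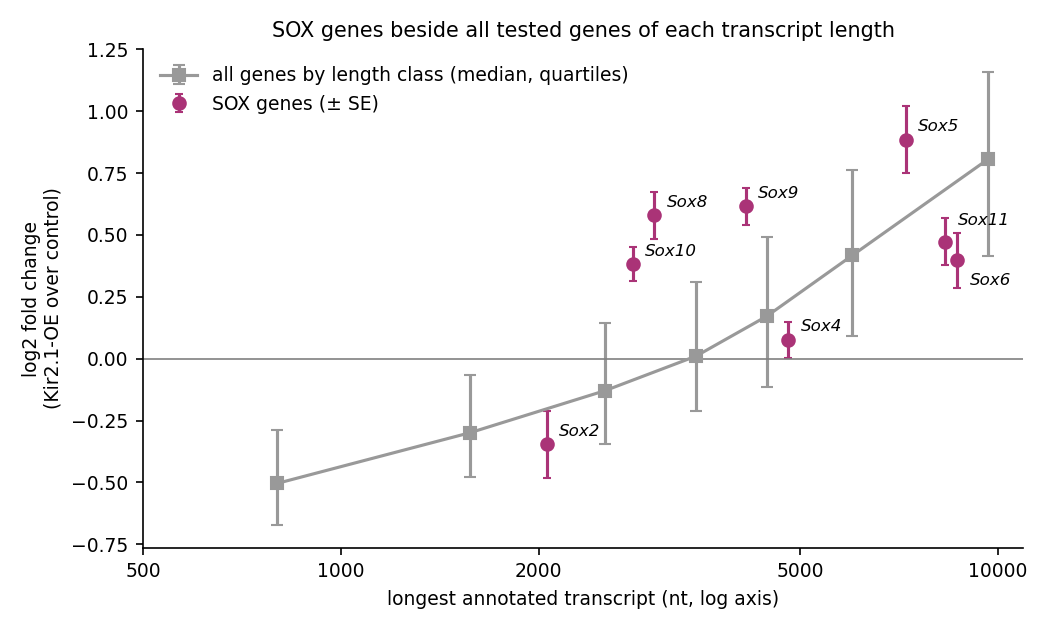
Log2 fold change (Kir2.1-OE over control) against the longest annotated transcript (nt, log axis), with the 8 SOX genes ± SE over the median and quartiles of all tested genes in 7 length classes (squares, at the median length of each class). The medians rise from -0.50 to 0.81, and Sox10, Sox8, Sox9 and Sox5 lie above the upper quartile of their class.

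When offsets for each gene and library were added for the trend with transcript length and GC content, 0 of the 8 SOX genes were called higher (6.46% of all genes tested) and 0 lower (3.42%). With these offsets Sox8 had a log2 fold change of 0.51 (SE 0.0895, adjusted p = 0.00344 from edgeR), Sox9 of 0.45 (SE 0.0712, adjusted p = 0.00218) and Sox5 of 0.43 (SE 0.117, adjusted p = 0.0188), each under 1.5-fold. Sox10 had 0.13 (adjusted p = 0.161 from edgeR) and Sox2 -0.17 (adjusted p = 0.36). Sox6, Sox11 and Sox4 changed sign, to -0.15 (edgeR, adjusted p = 0.271), -0.08 (adjusted p = 0.50) and -0.25 (adjusted p = 0.0160). The median of the 8 genes was 0.02 with the offsets. Since the trend differs between the genotypes, the offsets also remove any change of genotype that follows length, and the 2 cannot be told apart here.

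**Figure D4:**
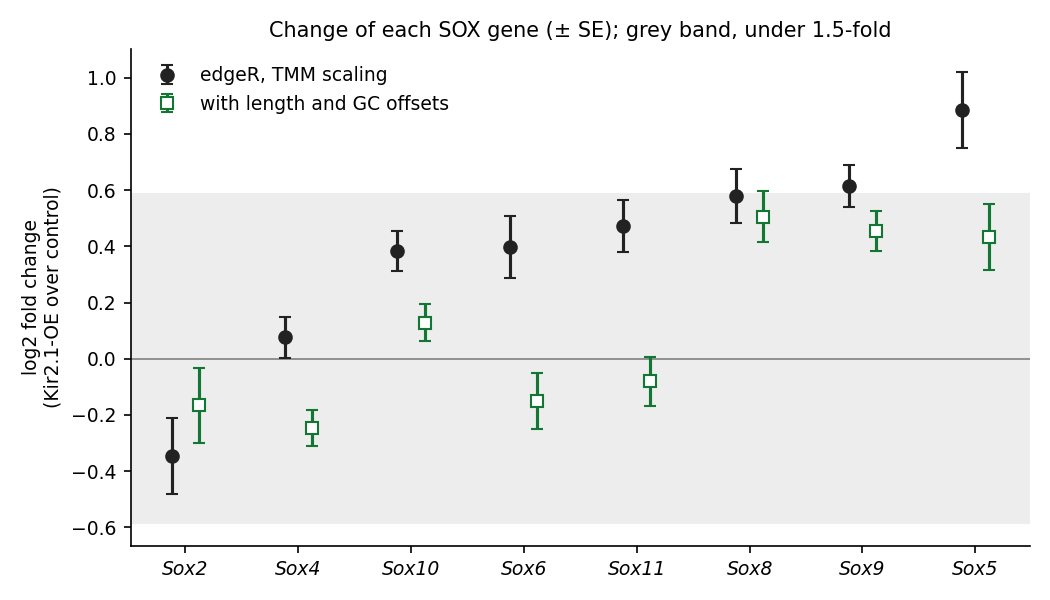
Log2 fold change ± SE of each SOX gene from edgeR with TMM scaling (filled circles) and with offsets for transcript length and GC content (open squares); the grey band marks changes under 1.5-fold. Without the offsets Sox9 (0.62) and Sox5 (0.88) lie outside the band, and with them all 8 genes lie inside it.

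Genes that SOX factors are known to regulate were read beside the factors. Of 15 cartilage matrix genes regulated by SOX9, SOX5 and SOX6, 13 passed the count filter. Of these, 6 were called higher (Acan, Col2a1, Col9a2, Col11a1, Col11a2 and Col27a1) and 0 lower, against 15.5% and 5.08% of all genes tested. Their median log2 fold change, over the 13, was 0.64. All of the called genes except Col9a2 have a longest transcript of 5000 to 8000 nt, a class in which 34.98% of genes were called higher. At an unadjusted p-value under 0.05, 2 of the 13 were lower (Ucma and Matn1), and DESeq2 called 0 and limma-voom 1 lower. Ucma, with a log2 fold change of -0.42 (SE 0.150, edgeR adjusted p = 0.0400), and Matn1, with -0.57 (SE 0.205, adjusted p = 0.0416), missed only the fold change threshold. The study named 4 of the 6 (Acan, Col2a1, Col11a1 and Col11a2) as SOX9 targets from these same libraries, so they are not independent evidence of direction. It also reported a Sox9 motif among those most enriched near the start sites of its upregulated genes. Many of those genes, by its account, overlapped with SOX9 targets in chondrocytes. Neither observation was tested here. Col2a1, the type II collagen of cartilage, had 256410, 312659 and 282649 normalized counts in controls and 549586, 652975 and 520305 in Kir2.1-OE pools (log2 fold change 1.02, SE 0.114). Acan, the proteoglycan aggrecan, had the highest log2 fold change of the list, 1.54 (SE 0.178, adjusted p = 2.35e-04 from edgeR). Col9a1 was under 1.5-fold at 0.45, and Cnmd (counted as Lect1), a cartilage gene with a short transcript of 1433 nt, had 0.05 (SE 0.0871). Once the offsets were added, 2 of the 13, Acan and Col11a1, were called higher, against 6.46% of all genes, and the median of the list was 0.32. Markers of bone and growth plate cells are given beside this list: without the offsets 1 of 8 (Col1a1) was called higher, against 15.5% of all genes tested. The summed level of these markers was 3285 to 3821 CPM in Kir2.1-OE pools and 1040 to 3473 CPM in controls, lowest in control replicate 1. Their part in the cartilage result was not tested.

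Of 10 Schwann cell genes regulated by SOX10, all of which were tested, 6 were called higher (Mag, Cnp, Prx, Egr2, Pou3f1 and Erbb3) and 0 lower. Their median log2 fold change was 0.69. The shares of all genes tested were 15.5% called higher and 5.08% called lower. At an unadjusted p-value under 0.05, and by DESeq2 and limma-voom, 0 were lower. Erbb3, the neuregulin receptor subunit that Schwann cells need to survive, had 1741, 1617 and 1544 normalized counts in controls and 3984, 3519 and 3745 in Kir2.1-OE pools (log2 fold change 1.20, SE 0.0771, adjusted p = 1.03e-04 from edgeR). Egr2, a transcription factor of myelination that acts with SOX10, had a log2 fold change of 0.77 (SE 0.149). The myelin genes Mbp, with 0.56 (SE 0.125), and Pmp22, with 0.39 (SE 0.132), were under 1.5-fold. S100b had 0.09 (SE 0.177). With the offsets 5 of the 10 were called higher (median 0.56), against 6.46% of all genes. Pmp22 was called there at 0.62 (edgeR adjusted p = 0.00648), while Prx (0.53) and Pou3f1 (0.47) were not. Without Kir2.1-OE replicate 3, whose summed level of the list was the highest at 6761 CPM, 4 were called. Over all pools this sum was 5509 to 6761 CPM in Kir2.1-OE mice and 3579 to 4774 CPM in controls. Most spiral ganglion neuron markers were also higher in Kir2.1-OE pools: 8 of 10 were called higher, against 15.5% of all genes tested. The sum of the 10 was 1244 to 2420 CPM in Kir2.1-OE pools and 678 to 928 CPM in controls. The sums of both lists ordered the Kir2.1-OE pools alike but not the controls. In control replicates 1 to 3 the Schwann cell genes had 3579, 4656 and 4774 CPM, and the neuron markers 833.4, 927.8 and 677.6 CPM. What part the nerve content of the pools has in the Sox10 and Schwann cell values was not tested.

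In melanocytes SOX10 acts through Mitf on the pigment genes. Of these 5 genes 1 was called higher, Mitf, and 2 lower, Dct and Tyr, against 15.5% and 5.08% of all genes tested. Mitf, which is also expressed outside melanocytes, had a log2 fold change of 0.64 (SE 0.0939, edgeR adjusted p = 6.35e-04). Dct had 590.9, 476.1 and 410.2 normalized counts in controls and 87.2, 149.9 and 183.0 in Kir2.1-OE pools (log2 fold change -1.81, SE 0.246, edgeR adjusted p = 4.42e-04). Tyr, tyrosinase, had 43.6 to 87.3 against 4.11 to 30.7 (log2 fold change -2.07, SE 0.606). The pigment genes Pmel and Tyrp1 had log2 fold changes of -0.48 (under 1.5-fold) and 0.13. Dct and Tyr were also called lower with the length and GC offsets, at -1.68 and -2.09, while Mitf, at 0.54, was not called with them. With upper quartile scaling 0 of the 5 were called higher and 2 lower. Without control replicate 1, 0 of the 5 were called higher and 1 lower.

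Of 3 genes regulated by SOX4 and SOX11 (Tubb3, Dcx and Tead2), 0 were called in either direction by edgeR, DESeq2 or limma-voom. However, 1 was lower at an unadjusted p-value under 0.05 from edgeR. That gene, Tead2, a transcription factor of the Hippo pathway, had 2288, 2197 and 2033 normalized counts in controls and 1407, 1549 and 1481 in Kir2.1-OE pools. Its log2 fold change of -0.55 (SE 0.0748, adjusted p = 4.30e-04 from edgeR) was under 1.5-fold, and Tead2 was called lower at -0.82 once the offsets were added. Tubb3 had 0.38 (SE 0.240) and Dcx 0.03 (SE 0.340), both with overlapping groups.

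**Figure D5:**
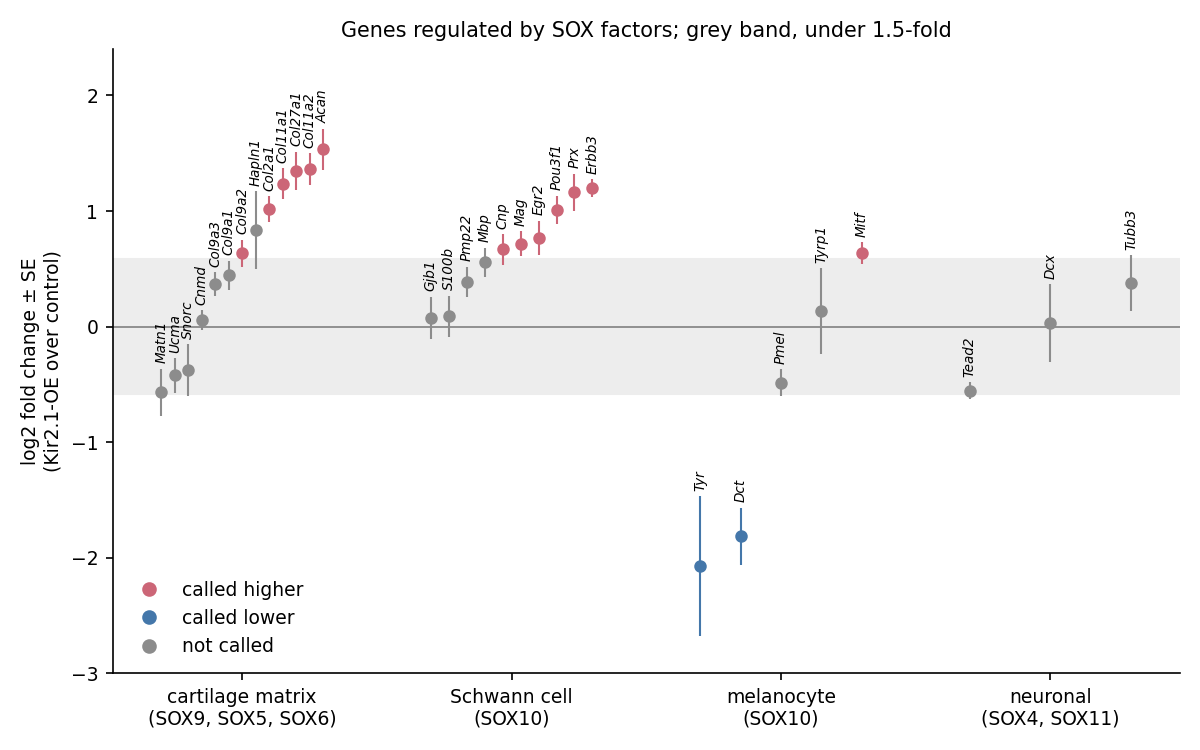
Log2 fold change ± SE (vertical axis, Kir2.1-OE over control) of each tested gene in the 4 lists of genes regulated by SOX factors, coloured by call; the grey band marks changes under 1.5-fold. The lists for cartilage matrix and Schwann cells each hold 6 genes called higher and none lower, and the melanocyte list holds Dct and Tyr below the band.

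Outside the 8 genes, 11 further SOX genes were looked up. Sox1, Sox14 and Sox15 did not pass the count filter. Sox14 had no read in any library, which allows a share of up to 8.47e-06% of the reads of the smallest library, a limit that covers counting error only. Of the 8 tested, 2 were called higher (Sox3 and Sox7) and 0 lower, against 15.5% and 5.08% of all genes tested. The median log2 fold change of the 8 was 0.35, and 0 were lower at an unadjusted p-value under 0.05, by DESeq2 or by limma-voom. Sox7, a factor of blood vessel endothelium, had 54.2, 67.2 and 49.9 normalized counts in controls and 134.5, 82.9 and 105.8 in Kir2.1-OE pools (log2 fold change 0.91, SE 0.243, edgeR adjusted p = 0.0117). Its relatives of the same subgroup, Sox17 and Sox18, had log2 fold changes of 0.50 (SE 0.204) and 0.26 (SE 0.152) and were not called. Sox3, a close relative of Sox2, had only 7.13 to 18.2 normalized counts in controls and 22.99 to 27.7 in Kir2.1-OE pools, with an adjusted p of 0.0492 from edgeR. DESeq2 called 1 of the 8 genes, and without Kir2.1-OE replicate 1 edgeR called 0. Sox13, the third SOXD gene, had a log2 fold change of 0.43 (SE 0.0882), close to that of Sox6, while Sox21, found like Sox2 in supporting cells, had 0.04 (SE 0.106) and Sox12, the third SOXC gene, 0.17 (SE 0.0851). With the length and GC offsets Sox12 had -0.36 (edgeR, adjusted p = 0.0102), Sox21 -0.32 (adjusted p = 0.0388) and Sox13 0.004, none of them called. Without the offsets Sox30 was the only 1 of the 8 with a negative log2 fold change, -0.97 (SE 0.572, edgeR adjusted p = 0.182). Its counts were low, 9.16 to 24.1 in controls and 2.998 to 13.3 in Kir2.1-OE pools, and overlapped.

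The genes whose profile over the 6 libraries was most like that of a SOX gene were found by the root mean square (RMS) difference of centred log2 CPM among the 13644 genes whose normalized counts averaged 50 or more. Among the 3 nearest to Sox2 were Hhat (0.0531) and Zfp558 (0.0635). Among the 3 nearest to Sox9 were Thrb (0.0193), which encodes a thyroid hormone receptor, and Arid2 (0.0254). The 3 nearest to Sox10 were Kdm7a (0.0172), Gid4 (0.0178) and Zfp790 (0.0233). With 6 libraries in 2 groups, many genes share such a profile.

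The sequences upstream of Sox2 and Sox5 are shown because these genes had the lowest and the highest log2 fold change of the 8, and because the study searched for transcription factor motifs around start sites. Each run gives the 250 bases before a RefSeq start site in the GRCm38.p6 assembly, in the direction of the gene, and capitals mark a SOX-type hexamer on either strand. The hexamers searched were ACAAAG, its variant ACAATG, and the motif AACAAT, which can overlap with ACAATG.
Sox2, chr3:34649745-34649994, plus strand: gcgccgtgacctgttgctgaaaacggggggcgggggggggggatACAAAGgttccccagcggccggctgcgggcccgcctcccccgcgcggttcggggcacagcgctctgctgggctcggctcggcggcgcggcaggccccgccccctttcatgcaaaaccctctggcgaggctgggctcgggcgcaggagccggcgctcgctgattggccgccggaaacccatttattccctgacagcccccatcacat
Sox5, chr6:143947107-143947356, minus strand: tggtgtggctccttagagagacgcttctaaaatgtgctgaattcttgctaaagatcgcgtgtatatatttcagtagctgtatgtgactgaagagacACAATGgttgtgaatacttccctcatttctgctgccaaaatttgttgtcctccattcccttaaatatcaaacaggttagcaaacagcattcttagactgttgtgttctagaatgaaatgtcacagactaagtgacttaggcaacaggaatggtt
Sox2 held ACAAAG with its first base 206 bases before the start, and Sox5 held ACAATG at 154 bases. The Sox5 start lies inside the gene as GENCODE annotates it. Of the 6 SOX genes with an entry, 3 held a hexamer in at least 1 window (Sox2, Sox5 and Sox6, the last in 5 of its 6 windows). Over all 32851 windows 29.6% held a hexamer. That is a share of single windows and not of genes, so it cannot be set against the count of genes. No hexamer was found in the single windows of Sox4, Sox8 and Sox11, which says only that these letters are not there.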

How the data were processed

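RNA of cochlear sensory epithelium was measured in 3 Kir2.1-OE and 3 control pools. The authors enriched poly(A) RNA, sequenced paired reads, ran the nf-core RNA pipeline against mm10 and deposited Salmon's expected counts, that is, estimated reads per gene symbol, neither scaled nor divided by length; tool versions, gene annotation and strand setting are not given in the sources used here. Samples were grouped and numbered by their labels. The column name in the file of control replicate 1 carries another replicate number than its label.

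The expected counts (6.95% not whole) were rounded and entered edgeR 4.0.16 (R 4.3.3) as 1 model over all 6 libraries: TMM scaling (factors 0.984 to 1.01), filterByExpr (15303 genes kept), quasi-likelihood F tests with p-values adjusted by Benjamini-Hochberg. Normalized counts are rounded counts scaled by TMM to the mean library size. Standard errors were obtained from the fold change and the F statistic. Libraries of a group differed by more than sampling noise (chi-square per degree of freedom 15.7 to 31.1). On simulated data for this comparison, 50 genes were given each of 4 log2 fold changes and 15211 genes were tested: 49 were called at -2, 41 at -1, 37 at 1 and 48 at 2, with 7 unchanged genes.

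Of 24411 symbols, 23376 were matched to GENCODE vM21 (mm10) by symbol, 687 by an older symbol and 348 not at all; Cnmd and Snorc were looked up under older symbols. Length and GC content are those of the longest transcript. The offsets come from a loess trend (span 0.4) fitted, library by library, to the log2 ratio against the mean of all 6. HMG box sequences were read from the GENCODE transcripts and upstream sequences from RefSeq (GRCm38.p6), where 6 of the 8 genes have an entry.

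The genes and lists were chosen with earlier results of these data known. Genes were named by rule: the 8 SOX genes, Kcnj2, other SOX genes, overlapping genes, and from each list at most the 4 most abundant genes plus those whose call differed; for Sox2, Sox9 and Sox10, also the 3 genes nearest in profile. Some genes that the rule names are not reported here, and the Schwann cell list was computed without them. Other list genes named with values were singled out after their values were seen. The alternatives were other scalings (DESeq2 size factors, library size, upper quartile), no filter or at least 10 counts in every library, a replicate block, the offsets with and without that block, DESeq2 1.42.0, limma-voom (limma 3.58.1), no fold change threshold, unrounded counts and each library left out in turn.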

Additional observations from a re-analysis of the deposited data

How the results depend on the processing

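Kcnj2 and Sox5 kept their direction under all 18 alternatives, Kcnj2 always called, and Sox8, Sox9, Sox10 and Sox2 also kept theirs. The replicate numbers do not pair the pools: same-numbered pools deviated in opposite ways (correlations -0.11, -0.23 and -0.21). With the replicate block 2 SOX genes were called higher and 0 lower, as without it, and 1 other SOX gene was called instead of 2; no other count moved by over 1.5 times. The number of SOX genes called higher was 2, but 1 with upper quartile scaling, 0 with the length and GC offsets, also with the replicate block, 6 without a fold change threshold, and 1 to 3 with a library left out. Of all calls 75.2% were higher, and 57.9% with upper quartile scaling.

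With the offsets Sox5 (0.43, and 0.44 with the replicate block) and Sox9 (0.45 and 0.45) were no longer called. Sox9 was not called with upper quartile scaling either (0.53), and it ranged from 0.56 to 0.65 with a library left out. Sox6 (-0.15 and -0.15), Sox11 (-0.081 and -0.076) and Sox4 (-0.25 and -0.25) reversed with the offsets, without and with the block, and Sox4 also with upper quartile scaling (-0.013). Without a fold change threshold Sox6 (0.40), Sox8 (0.58), Sox10 (0.38) and Sox11 (0.47) were called; Sox8 ranged from 0.49 to 0.65 with a library left out. The difference in the Sox9 to Sox10 ratio moved to 0.33 and that of Sox4 to Sox11 to -0.17 with the offsets.

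Other SOX genes called were 1 instead of 2 with DESeq2 size factors, library size, upper quartile scaling, either filter, the replicate block, the offsets or DESeq2, 0 with the offsets and block, and 0 to 2 with a library left out. Cartilage matrix genes called were 2 with the offsets, with or without the block, and 10 without a threshold (8 higher and 2 lower). With upper quartile scaling 5 of them were called higher and 1 lower. Likewise 1 was called lower without Kir2.1-OE replicate 3, control replicate 1 or control replicate 3. Schwann cell genes called ranged from 4 to 7 and melanocyte genes from 1 to 3 with a library left out. Of the 3 genes regulated by SOX4 and SOX11, 1 (Tead2) was called instead of 0 with upper quartile scaling and without a threshold. The same held with the offsets, with or without the block. With a library left out, 0 to 1 of them were called. The lowest value of the 8 SOX genes in any library was 416.3 normalized counts (Sox5), while Sox3 and Tyr went down to 7.13 and 4.11, where counting error is larger. Causes of these dependences were not tested.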

Other observations

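The remaining cell type lists give the makeup of the pools in which the SOX genes were read. Over all genes tested 15.5% were called higher and 5.08% lower. Of 10 hair cell markers 3 were called higher (Myo7a, Otof and Slc26a5) and 1 lower (Atoh1), with a summed level of 1367 to 1542 CPM in Kir2.1-OE pools and 1290 to 1427 CPM in controls. Pou4f3, a transcription factor that hair cells need to survive, had a log2 fold change of 0.05 (SE 0.116). With the length and GC offsets Otof had -0.09, Myo7a 0.31 and Slc26a5, the outer hair cell motor protein prestin, 0.71, of which only Slc26a5 was called. Atoh1 had low normalized counts, 23.4 to 43.1 in controls and 11.3 to 22.2 in Kir2.1-OE pools. It was not called with the offsets (edgeR adjusted p = 0.0894). Of 6 fibrocyte markers 1 was called higher, Coch (log2 fold change 0.63, SE 0.193), and the sums overlapped (6306 to 8269 CPM against 5023 to 8398 CPM). Of 6 macrophage markers edgeR, DESeq2 and limma-voom called 0, although 2 were higher and 1 lower at an unadjusted p-value under 0.05 from edgeR. Of 5 erythrocyte genes 3 were called lower (Hbb-bt, Hba-a1 and Alas2), and their sum was 289.2 to 367.3 CPM in Kir2.1-OE pools and 477.3 to 1190 CPM in controls. Hba-a1 and Hba-a2 are near-identical genes between which estimated reads can be split.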
